A study of Mus musculus with 7 samples.

Results

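The 150 genes described here were selected on their measured levels: each had at least 10 TPM (transcripts per 1000000, a level corrected for gene length) in both libraries of primed pluripotent cells, and the 150 that stood furthest above the other 5 libraries of the series were taken. The score that ranked them was the smaller log2(TPM + 1) of the 2 primed libraries minus the largest log2(TPM + 1) of the other 5. Of 29267 genes in the tables, 8514 passed the TPM minimum, and 1539 of these had a score above 0. The primed libraries came from 5C-Oct4GFP+ cells converted in primed medium, 5C-Oct4GFP+ (primed), and from mouse R1 embryonic stem cells brought to the primed state, R1 ESCs-primed, both labelled with 20 passages. The other libraries came from cells reprogrammed with Oct4, Sox2, Klf4 and c-Myc in conventional mES medium or in the chemically defined 5C medium and sorted into cells with GFP (mES-Oct4GFP+ or 5C-Oct4GFP+) and cells without it (mES-Oct4GFP- or 5C-Oct4GFP-), all labelled with 0 passages, and from 5C-Oct4GFP+ cells converted in naive medium, 5C-Oct4GFP+ (naive), labelled with 20 passages. Per the study's methods, R1 cells were brought to the primed state on fibroblast feeders and then kept with CHIR99021 and IWR-1 in place of bFGF and activin A. For 5C-Oct4GFP+ (primed) culture in primed medium is stated. The study's naive medium contained LIF and 2i. The reprogrammed cells, 5C-Oct4GFP+ (primed) included, derived from OG2 mouse embryonic fibroblasts, in which an Oct4 promoter lacking its proximal enhancer drives GFP, while R1 is an established line without that history. There was 1 library per group, so that no difference has a replicate check and no test was made.

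Primed pluripotent cells resemble the epiblast after implantation, and they depend on FGF and activin/Nodal signals rather than on LIF. In the embryo, cells of the posterior epiblast enter the primitive streak, where Wnt, Nodal and FGF signals switch on T-box and homeobox regulators, and cells of its anterior end go on to form definitive endoderm and axial mesoderm. Secreted inhibitors of Nodal, Wnt and BMP limit where those signals act.

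Promoter sequence was independent of the rule. The 250 bases before a start of 4 leading members are shown because they differ in CpG content, from 5 CpG in Cer1 to 24 in Fgf5. Windows that overlap the annotated gene are not shown, and Foxa2 had such windows. They are RefSeq sequences of build GRCm38.p6, printed in the direction of the gene, and capitals mark matches on either strand to the motifs searched below. Foxa2 lay at chr2:148046970-148047219 (minus strand), Fgf5 at chr5:98253934-98254183 (plus strand), T at chr17:8434173-8434422 (plus strand) and Cer1 at chr4:82885152-82885401 (minus strand).
Foxa2: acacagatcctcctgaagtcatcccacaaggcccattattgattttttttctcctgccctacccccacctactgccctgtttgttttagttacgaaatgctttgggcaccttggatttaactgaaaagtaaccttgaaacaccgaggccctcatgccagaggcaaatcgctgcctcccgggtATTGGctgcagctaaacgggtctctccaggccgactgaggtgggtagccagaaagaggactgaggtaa
Fgf5: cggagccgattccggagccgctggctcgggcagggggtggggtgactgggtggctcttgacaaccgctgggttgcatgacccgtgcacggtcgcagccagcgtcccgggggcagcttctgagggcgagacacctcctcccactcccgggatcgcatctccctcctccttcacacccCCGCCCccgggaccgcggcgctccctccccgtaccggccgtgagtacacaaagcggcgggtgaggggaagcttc
T: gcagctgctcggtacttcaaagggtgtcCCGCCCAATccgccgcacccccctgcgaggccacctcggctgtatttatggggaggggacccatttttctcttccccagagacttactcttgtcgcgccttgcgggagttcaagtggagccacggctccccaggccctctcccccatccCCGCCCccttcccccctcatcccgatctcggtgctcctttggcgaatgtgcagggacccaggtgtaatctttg
Cer1: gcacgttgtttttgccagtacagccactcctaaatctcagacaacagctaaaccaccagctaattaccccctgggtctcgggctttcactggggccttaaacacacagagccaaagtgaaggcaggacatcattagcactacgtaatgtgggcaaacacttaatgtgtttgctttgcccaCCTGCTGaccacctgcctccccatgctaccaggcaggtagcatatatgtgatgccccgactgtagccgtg
Foxa2 and Cer1, with 6 and 5 CpG, had 50.8% and 51.6% G and C, while T and Fgf5, with 14 and 24 CpG, had 62.8% and 70.8%.

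The expected counts summed to between 6108252 and 11496615 per library, and 3 counts on a gene of median length were worth between 0.286 and 0.547 TPM. The labels of the primed cells were checked on marker genes. All 14 naive pluripotency markers were at least 2-fold lower in both primed libraries than in 5C-Oct4GFP+ (naive), with summed levels of 158 and 181 TPM against 3030 TPM. The 10 shared pluripotency markers were all above 1 TPM in every library. Markers of other cells also moved with the primed libraries: 12 of 16 fibroblast markers were at least 2-fold higher in both than in 5C-Oct4GFP+ (naive), and their summed level was 124 TPM in 5C-Oct4GFP+ (primed), 324 TPM in R1 ESCs-primed and between 20.6 and 24.6 TPM in the naive and both Oct4GFP+ libraries. It was higher still in the libraries of cells without GFP, at 1260 TPM for mES-Oct4GFP- and 473 TPM for 5C-Oct4GFP-, where the median member stood at 6.54 and 6.21 TPM. Trophoblast markers summed to 818 TPM in 5C-Oct4GFP+ (primed) and 344 TPM in R1 ESCs-primed against 91.1 TPM in naive medium, but of 6 with at least 1 TPM in a primed or the naive library 3 were at least 2-fold higher and 2 lower in both primed libraries. By the same measure 5 of 9 extraembryonic endoderm markers were higher and 1 lower, 2 of 5 mesoderm markers higher and 0 lower, and 3 of 9 neural markers higher and 1 lower. The part of such cells in the members' levels was not tested. In RNA pooled from many cells, of a culture or a sorted fraction, fewer cells of a type and less RNA per cell cannot be told apart.

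The name "confined to primed cells" held for few of the genes. The score ran from 0.92 to 4.09 with a median of 1.42, and 132 of the 150 were at least 2-fold above each of the other libraries on the log2(TPM + 1) scale (1.55% of the genes that passed the minimum, a share that the rule itself fixes). Only Mixl1 and Lhx1os were under 1 TPM in all 5 other libraries, and 73 members reached 10 TPM in at least 1 of them. The median member stood at 34.4 TPM in both primed libraries, and lowest in 5C-Oct4GFP+ (naive) at 1.52 TPM. It stood at 4.03 TPM in 5C-Oct4GFP+ cells and at 2.04 TPM in mES-Oct4GFP+ cells. Against 5C-Oct4GFP+ (naive) alone, 147 of the 150 stood at least 2-fold higher in both primed libraries; Chchd7, Gm10406 and Eef1akmt1 did not. Just inside the limit were Grip1, Sox17 and Eef1akmt1, each with a score of 0.92, and just outside were Prr5, Cdr2 and Nt5dc2, each with a score of 0.91, so that the limit falls in a continuous series.

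**Figure D1:**
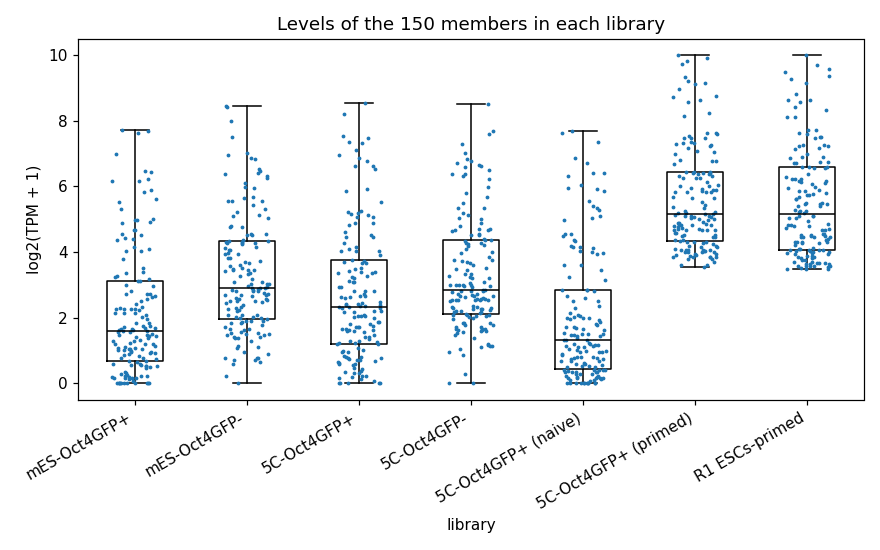
Levels of the 150 members in each library on the log2(TPM + 1) scale; points are genes, boxes give the median and quartiles, and whiskers the full range. The medians were 34.4 TPM in both primed libraries and between 1.52 and 6.54 TPM in the others, and the ranges overlap because the members differ in level.

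Regulators of the primitive streak and mesendoderm held 6 of the 20 highest scores. Of the 28 genes on that list, 19 reached 1 TPM in a primed or the naive library; 13 of these were at least 2-fold higher in both primed libraries than in 5C-Oct4GFP+ (naive), 2 (Cdx1 and Cdx2) were lower, and 4 were neither. Over all genes, 17.6% were higher and 13.2% lower by the same measure. Of the 28, 8 were members.

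Gsc, a homeobox gene of the organizer (ENSMUSG00000021095, chr12:104471209-104473330, minus strand), was at 107 TPM in 5C-Oct4GFP+ (primed) and 92.5 TPM in R1 ESCs-primed. Next came 5C-Oct4GFP+ (naive) with 6.20 TPM, then mES-Oct4GFP+ and mES-Oct4GFP- cells with 5.28 and 3.23 TPM, while the sorted 5C cells had 1.18 TPM without GFP and 0.73 TPM with it. Gsc was therefore one of 6 members whose highest level outside the primed libraries was in naive medium. Foxa2, a forkhead factor of endoderm and node (ENSMUSG00000037025, chr2:148042877-148046969, minus strand), was at 82.9 and 106 TPM in 5C-Oct4GFP+ (primed) and R1 ESCs-primed. Among sorted cells it was at 7.54 TPM without and 1.20 TPM with GFP in mES medium, and at 6.22 TPM without and 0.25 TPM with GFP in 5C medium; in naive medium it was at 0.11 TPM. Lhx1, a LIM homeobox gene needed for the head organizer, was at 131 and 104 TPM in the same primed libraries, at 10.9 TPM in mES-Oct4GFP- and at 1.93 TPM or less in the other 4. Both genes were low in the Oct4GFP+ libraries and intermediate in at least 1 Oct4GFP- library.

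Lhx1os, a lincRNA that starts 125 bases from Lhx1 on the opposite strand, was at 15.5 and 11.45 TPM in the primed libraries, from 51 and 23 expected counts. It had 1 count in mES-Oct4GFP- and 0 in the other 4 libraries. Mixl1, a homeobox gene of the streak, was at 16.1 TPM in 5C-Oct4GFP+ (primed) and 36.5 TPM in R1 ESCs-primed, and between 0.16 and 0.95 TPM elsewhere. These were the members with the least signal outside the primed libraries.

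T (Brachyury, ENSMUSG00000062327, chr17:8434423-8442496, plus strand), the T-box gene that defines the streak, was at 155 TPM in 5C-Oct4GFP+ (primed) and 374 TPM in R1 ESCs-primed. Outside them it reached 26.6 TPM in 5C-Oct4GFP- but was at 0.24 TPM in 5C-Oct4GFP+ cells. Naive medium gave 14.5 TPM, and mES medium 9.96 TPM without and 6.93 TPM with GFP. Eomes, a T-box factor of the anterior streak and endoderm, was at 81.2 and 115 TPM, next highest in mES-Oct4GFP- (10.3 TPM), then at 7.49 TPM with and 3.54 TPM without GFP in 5C medium, and under 1 TPM in the remaining libraries. T and Eomes thus differed in where they were next highest. Sox17, an endoderm regulator, was at 60.4 and 35.3 TPM with 18.2 TPM in mES-Oct4GFP-. In all, 8 of 10 definitive endoderm markers were at least 2-fold higher in both primed libraries than in 5C-Oct4GFP+ (naive). The 10 summed to 1370 TPM in 5C-Oct4GFP+ (primed) and 1645 TPM in R1 ESCs-primed, but to 2302 TPM in 5C-Oct4GFP-. Sums were lower in mES-Oct4GFP- (585 TPM), 5C-Oct4GFP+ (497 TPM), 5C-Oct4GFP+ (naive) (398 TPM) and mES-Oct4GFP+ (214 TPM). Of these markers, 4 (Foxa2, Sox17, Cer1 and Gsc) were members, so that the marker list is not independent of them.

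Of the 19 primed and formative transcription factors listed, 13 were higher in both primed libraries than in 5C-Oct4GFP+ (naive), but only Sox3 was a member. Sox3, an X-linked SoxB1 gene, was at 32.0 and 31.8 TPM, followed by 12.5 and 8.27 TPM in 5C cells without and with GFP, 9.90 and 2.56 TPM in mES cells without and with GFP, and 1.28 TPM in naive medium. Rxrg, a retinoid receptor, was at 15.5 and 21.5 TPM and at 3.25 TPM or less elsewhere. Vrtn, a vertebra-number gene, was at 83.4 and 96.0 TPM and, unlike the streak genes above, was next highest in 5C-Oct4GFP+ (12.2 TPM).

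**Figure D2:**
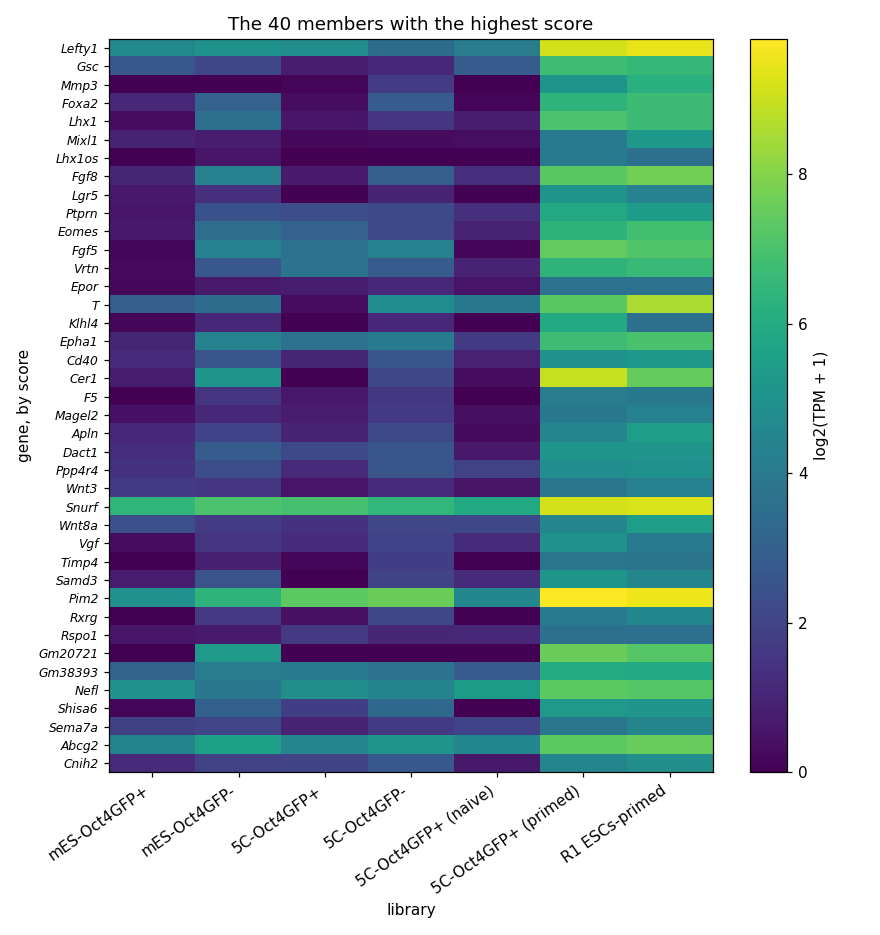
Heat map of the 40 members with the highest score (rows, in order of score) in the 7 libraries (columns); colour gives log2(TPM + 1). Lefty1 leads with 564 and 715 TPM in the primed libraries, and Gm20721 is at 0 in 4 libraries.

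The members included 16 secreted signals and their inhibitors (a class assigned after the values were seen). Lefty1, a feedback inhibitor of Nodal (ENSMUSG00000038793, chr1:180935022-180938400, plus strand), had the highest score: it was at 564 TPM in 5C-Oct4GFP+ (primed) and 715 TPM in R1 ESCs-primed, and between 10.1 and 32.1 TPM in the others. Cer1, an inhibitor of Nodal, BMP and Wnt, was at 497 TPM in 5C-Oct4GFP+ (primed) and 179 TPM in R1 ESCs-primed, at 33.2 and 3.38 TPM in the mES and 5C cells without GFP, and under 1 TPM in the Oct4GFP+ and naive libraries. Lefty1 stayed at 10.1 TPM or more in every library, whereas Cer1 was listed at 0 in 5C-Oct4GFP+. Of 15 Nodal pathway genes measured, 8 were higher in both primed libraries than in 5C-Oct4GFP+ (naive), among them Nodal, Tdgf1, Cfc1 and Foxh1, and 2 (Gdf3 and Pcsk6) were lower.

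The FGF ligands Fgf5, a marker of the epiblast, and Fgf8, a signal of the streak, were both members. Fgf5 was at 175 and 139 TPM in 5C-Oct4GFP+ (primed) and R1 ESCs-primed, between 11.7 and 19.04 TPM in the cells without GFP of both media and the 5C-Oct4GFP+ cells, and at 0.12 and 0.09 TPM in mES-Oct4GFP+ cells and naive medium. Fgf8 was at 157 and 208 TPM, with 18.3 and 6.74 TPM in the mES and 5C cells without GFP and 1.52 TPM or less in the other 3. Neither exceeded 1.52 TPM in naive medium. Of 17 FGF ligands measured, 7 were higher and 3 (Fgf3, Fgf4 and Fgf20) lower in both primed libraries than in 5C-Oct4GFP+ (naive). By the same measure, 10 of 15 FGF receptors and feedback regulators were higher and 0 lower. These 15 summed to 597 TPM in 5C-Oct4GFP+ (primed) and 704 TPM in R1 ESCs-primed, but also to 630 TPM in mES-Oct4GFP- and 804 TPM in 5C-Oct4GFP-. They summed to 466 TPM in 5C-Oct4GFP+, 233 TPM in mES-Oct4GFP+ and 244 TPM in 5C-Oct4GFP+ (naive). Il17rd, which dampens FGF signalling, was the member among them, at 55.6 and 70.9 TPM against 9.82 to 19.6 TPM elsewhere.

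Wnt3 and Wnt8a, the ligands that act at the streak, were at 13.5 and 21.1 TPM in 5C-Oct4GFP+ (primed) and at 18.5 and 42.7 TPM in R1 ESCs-primed. Wnt3 was between 0.42 and 2.20 TPM and Wnt8a between 1.68 and 4.31 TPM elsewhere. Lgr5, an R-spondin receptor and Wnt target, was at 33.1 and 19.7 TPM, and at 1.60 TPM or less in all others. The Wnt targets did not move one way: of 24 with at least 1 TPM, 8 were higher (Lgr5, T, Dkk1 and Nkd1 among them) and 7 lower (Axin2, Sp5, Notum and Rnf43 among them) in both primed libraries than in 5C-Oct4GFP+ (naive). Chrd, a BMP inhibitor, was at 84.0 and 58.0 TPM, with 19.3 and 13.0 TPM in the 5C and mES cells without GFP. Of 17 BMP pathway genes measured, 10 were higher and 0 lower in both primed libraries than in 5C-Oct4GFP+ (naive). The 19 genes listed summed to 395 and 396 TPM in the primed libraries, but to 1001 and 839 TPM in mES-Oct4GFP- and 5C-Oct4GFP-. The sums were 318 TPM in 5C-Oct4GFP+, 66.0 TPM in mES-Oct4GFP+ and 88.4 TPM in 5C-Oct4GFP+ (naive).

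The 20 highest scores included several members that act at the cell surface or in the matrix, Mmp3 and Epha1 among them. Epha1, an ephrin receptor, was at 109 and 125 TPM, and between 11.7 and 18.7 TPM in the cells without GFP and the 5C-Oct4GFP+ cells. Mmp3, a matrix metalloproteinase that fibroblasts can also make, was at 32.9 TPM in 5C-Oct4GFP+ (primed) and 74.4 TPM in R1 ESCs-primed, the order of the fibroblast markers in the same libraries. It was listed at 0 in mES-Oct4GFP-, which had the highest summed fibroblast level, and was at 2.30 TPM in 5C-Oct4GFP-. The part of fibroblast RNA in the Mmp3 values was not tested. Cdh2 (N-cadherin), the only member of the cadherin list, was at 81.7 and 93.1 TPM, with 42.4 and 19.6 TPM in the mES and 5C cells without GFP, against 1.65 to 5.38 TPM in the other 3. Nrcam, Sema6a and Efna2, which act in adhesion and guidance of axons, had scores of 1.11, 1.37 and 1.23.

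The RNA-binding, chromatin and imprinted members included genes that were high in every library. Dnmt3b, a de novo DNA methyltransferase, was at 844 and 823 TPM in the primed libraries, at 366 TPM in 5C-Oct4GFP+ and between 49.4 and 115 TPM in the other 4. Lin28a, which blocks let-7 processing, was at 299 and 321 TPM, at 109 TPM in 5C-Oct4GFP+ and between 24.2 and 75.9 TPM in the rest. In both genes 5C-Oct4GFP+ was the next highest library. Snrpn, Snurf and Gm38393 overlap on the same strand of chromosome 7 and share reads, so that they count as 1 locus: Snrpn was at 375 and 446 TPM against 74.0 to 136 TPM elsewhere. Magel2, an imprinted gene of the same chromosome, was at 14.8 and 18.8 TPM against 0.32 to 2.14 TPM. Of 39 imprinted genes measured 21 were higher and 4 lower in both primed libraries than in 5C-Oct4GFP+ (naive). These 39 summed to 4439 TPM in 5C-Oct4GFP+ (primed) and 5499 TPM in R1 ESCs-primed, but also to 9516 TPM in mES-Oct4GFP- and 4710 TPM in 5C-Oct4GFP-. They summed to 3498 TPM in 5C-Oct4GFP+, 1614 TPM in mES-Oct4GFP+ and 1466 TPM in 5C-Oct4GFP+ (naive). Of the 16 germline genes listed 14 were lower in both primed libraries than in 5C-Oct4GFP+ (naive), and none was a member.

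Across the members, the median difference, 5C-Oct4GFP+ (primed) minus R1 ESCs-primed, was 0.05 on the log2(TPM + 1) scale, beside -0.03 over all genes with at least 1 TPM in either library. By at least 2-fold, 6 members stood higher in 5C-Oct4GFP+ (primed) and 4 lower, or 4.0% and 2.67% of the members; the 6 became 3 with 1 effective length per gene and 2 with FPKM. Among all genes with at least 1 TPM in either library 2.3% and 5.09% passed the same limits, and among those with at least 10 TPM in both, 0.658% and 0.904%. Klhl4, a kelch-like gene on the X chromosome, was at 63.1 TPM in 5C-Oct4GFP+ (primed) and 11.4 TPM in R1 ESCs-primed, a ratio of 5.56 (exact 95% interval 4.70 to 6.64). Cer1 had a ratio of 2.78 (2.61 to 2.97) and Stxbp6, a syntaxin-binding gene, of 2.95 (2.40 to 3.66). In the other direction T had a ratio of 0.415 (0.389 to 0.443), Mixl1 of 0.441 (0.370 to 0.525) and Mmp3 of 0.442 (0.385 to 0.508). T and Mixl1 were thus lower, and Lhx1, Gsc and Sox17 higher, in 5C-Oct4GFP+ (primed), with ratios of 1.27, 1.16 and 1.71 for the latter. These intervals come from rounded expected counts and cover counting error only, and cell line and origin cannot be told apart.

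**Figure D3:**
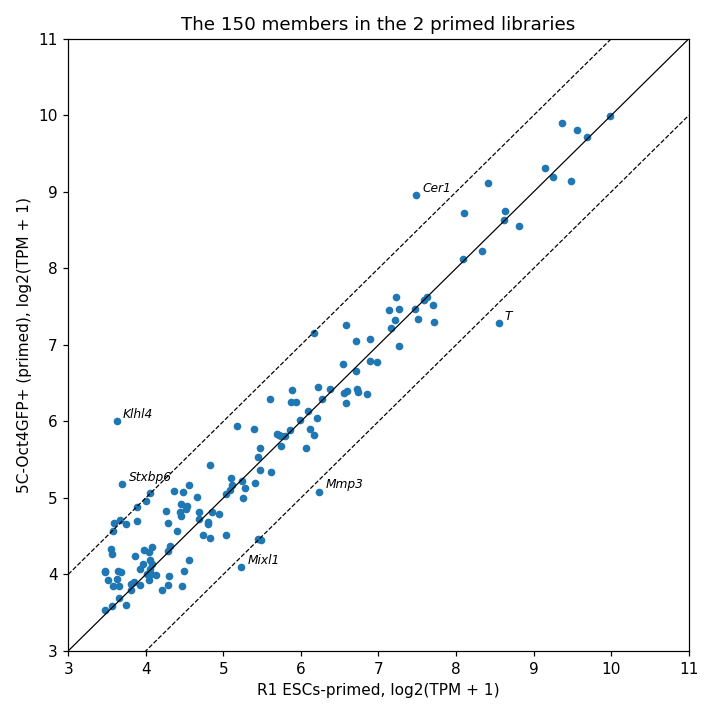
The 150 members in R1 ESCs-primed (horizontal) and 5C-Oct4GFP+ (primed) (vertical), both log2(TPM + 1); the solid line marks equal levels and dashed lines a 2-fold difference. Klhl4, Cer1 and Stxbp6 lie above and T, Mixl1, Mmp3 and Apln on or under the dashed lines.

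Outside the primed libraries the members were highest in sorted Oct4GFP- cells. The next highest library was that of the 5C cells without GFP for 56 members and with GFP for 25, of the mES cells without GFP for 52 and with GFP for 11, and of naive medium for 6. Among the 8514 genes that passed the minimum these libraries were, in the same order, the highest of the 5 for 22.4%, 15.6%, 28.4%, 20.1% and 13.5%. The rule used these libraries, and the counts that follow are descriptions. Of the members 75 were at least 2-fold higher and 4 lower in mES-Oct4GFP- than in mES-Oct4GFP+, beside 20.4% and 12.9% of the genes that passed the minimum. In 5C medium 51 were higher and 7 lower in Oct4GFP- than in Oct4GFP+ cells, beside 13.1% and 4.57%. Fibroblast markers were also higher in both Oct4GFP- libraries, and the share of other cells in these levels was not tested. Between the 5C-Oct4GFP+ libraries, 56 members were at least 2-fold higher in the sorted cells than in those kept in naive medium and 7 lower, beside 13.1% and 3.95%. Fgf5, Vrtn, Eomes and Dnmt3b were among the higher ones. T (0.24 TPM in the sorted cells against 14.5 TPM in naive medium) and Gsc (0.73 against 6.20 TPM) were among the 7 lower ones. Fgf8 passed neither limit.

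In all, 20 members lay on the X chromosome, 13.3% of the 150 beside 3.34% of the genes that passed the minimum. They included Klhl4, Apln, Pim2, Sox3, Zcchc12, Bex1 and Bex4. Pim2, a kinase gene, was at 898 and 754 TPM in the primed libraries and between 22.6 and 193 TPM elsewhere, and Apln, which encodes the ligand apelin, at 20.8 and 43.8 TPM and between 0.21 and 3.58 TPM elsewhere. Across the 284 X-linked genes that passed the minimum, the median difference to 5C-Oct4GFP+ (naive) was 0.50 for 5C-Oct4GFP+ (primed) and 0.58 for R1 ESCs-primed, beside 0.20 and 0.21 over 8199 autosomal genes. Against 5C-Oct4GFP- it was 0.07 and 0.09, beside -0.0007 and 0.0022 over the autosomal genes. Xist, the RNA that silences an X chromosome, was at 5.36 and 19.6 TPM in the primed libraries, 1.36 TPM in naive medium, 1.45 and 258 TPM in mES cells with and without GFP, and 22.2 and 114 TPM in 5C cells with and without GFP. It was thus highest in the cells without GFP, and its part in the X-linked levels was not tested.

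**Figure D4:**
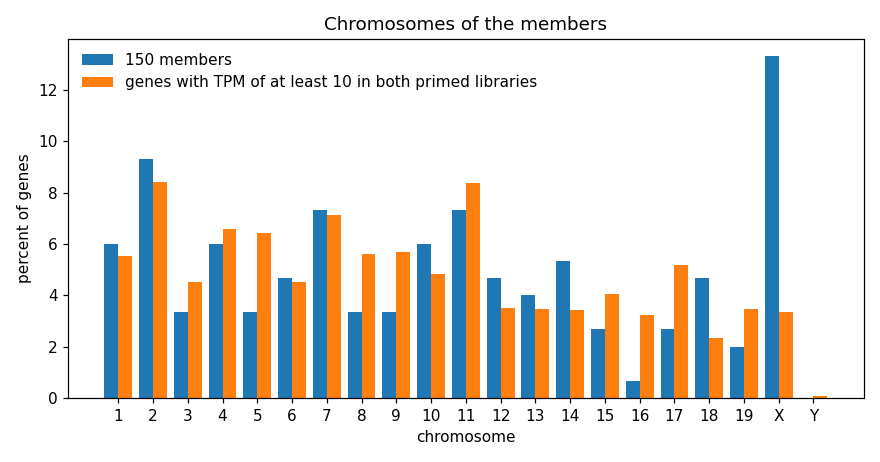
Percent of the 150 members and of the 8514 genes with at least 10 TPM in both primed libraries on each chromosome. The X chromosome holds 13.3% of the members and 3.34% of the genes.

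RefSeq promoter windows of 300 bases, 250 before and 50 after a start, were found by symbol for 111 of the 150 members, with 145 windows. Their median G and C content was 61.0%, close to the 61.7% of the genes that passed the minimum, but their ratio of observed to expected CpG was lower, with a median of 0.61 beside 0.80; this difference was not tested. At least 50% G and C with a CpG ratio of at least 0.6 was met by 49.0% of the member windows, 73.6% of the windows of genes that passed the minimum and 33.5% of all 32851 windows. The motifs were searched on both strands. CTTTGAT (TCF/LEF) was in 2.76% of member windows beside 2.44% of the windows of genes that passed the minimum and 3.73% of all, AGGTGTGA (T-box) in 1.38% beside 0.68% and 1.28%, TAATCC (OTX and GSC) in 6.21% beside 5.53% and 7.06%, and TGTTTAC (forkhead) in 2.07% beside 2.54% and 3.65%. CAGCAGG (ZIC) was in 11.7% beside 9.44% and 10.51%, ACAATG (SOX) in 8.28% beside 6.94% and 12.6%, and ATGCAAAT (POU octamer) in 0.69% beside 1.13% and 1.74%. TATAAA was in 11.03% beside 6.36% and 13.6%, CCAAT in 31.7% beside 38.4% and 37.4%, and GGGCGG in 63.5% beside 66.7% and 35.7%. In the sequences above, Cer1 held CAGCAGG on the opposite strand, Foxa2 CCAAT on the opposite strand, Fgf5 GGGCGG and T both GGGCGG and CCAAT, which share bases in its first run of capitals.

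Some values rest on shared or few reads. Gm20721 overlaps Gnas on the opposite strand, had 1742 and 803 expected counts in the primed libraries and 243 in mES-Oct4GFP-, and was at 0 in 4 libraries in which Gnas was between 69.8 and 1142 TPM. It is therefore uncertain. In all, 6 members overlapped another gene of the tables on the same strand and 43 on the opposite strand. The effective length that RSEM gives a gene varied between libraries with its isoforms: with 1 length per gene 137 of the members were retained, and all 150 kept a score above 0. Shisa6 (score 1.82, or 0.82 with 1 length) and Rspo1 (1.94, or 1.24), which encodes a Wnt agonist, had the largest drops in score this way.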

How the data were processed

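Mouse RNA was measured in 7 libraries, 1 per group, prepared with a TruSeq kit and sequenced on a MiSeq. Per the labels, the authors used Bowtie and RSEM with genome build mm10; versions are not given in the sources used here. In the deposited tables the expected counts are raw read estimates per gene, the deposited TPM values are counts per effective length scaled to 1 sum per library, and the deposited FPKM values, by the authors, are scaled to mapped fragments. TPM was used throughout, with a pseudocount of 1 on the log2 scale. The 150 genes, the gene lists and the classes were chosen with earlier results of these data known. Named were the 20 highest scores, members on a list, the 3 largest differences between the primed libraries in each direction with at least 30 expected counts in both, and 3 genes on each side of the limit; other genes were chosen after their values were seen. Ratios have exact (Clopper-Pearson) 95% intervals, checked with the rule on simulated data with 1 effective length per gene, and cover counting error only. Positions are from GENCODE on GRCm38, the same build as mm10, in which 28756 of 29267 genes were found. Computed with Python 3.11.15, pandas 2.3.3 and scipy 1.17.1. The alternatives were a pseudocount of 0.1, FPKM, median-ratio rescaling, TPM minimums of 5 and 20, leaving out each other library from the score, and 1 effective length per gene, the last added after the data were seen. The values of some members are not reported here.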

Additional observations from a re-analysis of the deposited data

Results flagged for a closer look

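In all, 3 members moved in opposite directions between Oct4GFP- and Oct4GFP+ cells in the 2 media, each by at least 2-fold on the log2(TPM + 1) scale. With 1 library per group these differences were not tested, and the genes were chosen after their values were seen. Calca, which encodes calcitonin and a related peptide, was higher in Oct4GFP- cells by 1.71 in mES medium and differed by -1.80 in 5C medium, where it was at 34.2 TPM in Oct4GFP+ and 9.13 TPM in Oct4GFP- cells. Mmp25, a membrane metalloproteinase gene, differed by 1.18 in mES medium and by -1.08 in 5C medium. Mycl, a Myc family gene, differed by -1.52 in mES medium and by 1.28 in 5C medium. The counts were low in part: Calca had 3 and Mmp25 1.9 expected counts in mES-Oct4GFP+.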

How the results depend on the processing

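No paired analysis was possible because each group had 1 library, and for the same reason no replicate could be left out. Of the 150 members, 99 were retained with FPKM in place of TPM and 97 with a minimum of 20 TPM, settings that admit fewer genes (6669 passed the minimum with FPKM); 147 were retained with a pseudocount of 0.1, 137 with median-ratio rescaling, 121 with a minimum of 5 TPM and 137 with 1 effective length per gene. Leaving out 1 other library from the score retained between 108 (mES-Oct4GFP-) and 146 (5C-Oct4GFP+ (naive)). The 6 members at least 2-fold higher in 5C-Oct4GFP+ (primed) than in R1 ESCs-primed became 2 with FPKM, 1 with a minimum of 20 TPM and 3 with 1 effective length per gene, and the cause was not tested. The count at least 2-fold lower stayed between 3 and 5 under the same alternatives and the others of the pseudocount, scaling and TPM minimum. The X-linked members, 20 as reported, numbered between 14 and 20 with the other pseudocount, FPKM, rescaling and 1 effective length, and were not counted under the other settings. Of 126 values for the 42 named genes, 2 moved by more than the counting interval, both of Dnmt3b (0.07 with FPKM and with rescaling). The sign changed in 4 values, all near 0: Grip1 went from -0.02 to 0.009 with FPKM and 0.011 with rescaling, and Prr5 from -0.0028 to 0.027 and 0.03.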

Other observations

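Some members lay next to each other in the genome. Enho, which encodes a secreted peptide, and Cntfr, a cytokine receptor gene, lay 17174 bases apart on chromosome 4, at 27.3 and 24.8 TPM and at 58.7 and 68.6 TPM. On the X chromosome Arxes1, Bex4 and Bex1 followed each other with gaps of 104050 and 73529 bases. The number of such neighbours was not compared with that of other genes.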
